A study of Mus musculus with 35 samples.

Results

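Collagens, laminins and the genes that modify, bind or assemble them were followed through the serial culture of MOSE cells, mouse ovarian surface epithelial cells that turn malignant in culture without added oncogenes. Members were taken by gene symbol in the array annotation: collagen chains, laminin chains, nidogens, fibulins, fibrillins, lysyl oxidases, lysyl and prolyl hydroxylases, and Sparc, Lum, Dcn, Bgn, Hspg2, Serpinh1 and Thbs1. The rule found 57 of the 15254 cDNA clones on the array, for 37 of the 7390 gene symbols. Of these genes, 24 had 1 clone and 13 had more than 1. No clone carried a fibrillin, lysyl oxidase, Lum, Thbs1, Plod1 or Plod2 symbol, the only fibulin was Fbln2 and the only lysyl hydroxylase was Plod3. Col4a3bp, the gene of a ceramide transfer protein, was matched by its spelling alone and is no matrix gene. A further 23 clones were annotated only as similar to the rat SPARC precursor and stayed outside the rule.

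Collagens are built from chains wound into a triple helix. The fibrillar collagens (types I, II, III and V here) form the cables of connective tissue and cartilage, whereas type IV collagen, the laminins, nidogens and perlecan form the sheet-like basement membrane on which epithelia rest, the ovarian surface epithelium among them. Inside the cell, prolyl and lysyl hydroxylases modify the new chains and the chaperone HSP47 holds the folded helix, and outside it, small proteoglycans and matricellular proteins bind the finished matrix.

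RNA of the cells was taken at 9 passages, which were p2 as the baseline, p5, p7 and p10 early on, then p14 and p18, and last p23, p25 and p28. The culture came from adult virgin female C57BL/6 mice and was kept in DMEM with fetal serum, with no treatment and no engineered allele at any passage. Each passage gave 1 RNA preparation, hybridized on 4 two-color NIA-15 K arrays (3 at p7) against RNA of whole newborn male C57BL/6 mice, with the dyes swapped on the reverse arrays. All 35 arrays are therefore technical replicates within 1 culture, and every test below measures the spread between hybridizations, not between cultures. A level is given as log2(MOSE/reference), so that 0 means equal signal in both channels, and a difference between passages is a difference of these log2 ratios. A passage mean averages the mean of the direct and the mean of the reverse arrays, so that at p7 the lone reverse array counts as much as both direct ones.

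The median signal of an array lay between 536 and 4226 for the MOSE channel and between 637 and 4545 for the reference, and 98.8 to 99.6% of clones were above background in both channels. The labeled cell type was checked on its markers: of 15 genes of ovarian surface and mesothelial cells on the array, 11 to 14 were above the newborn reference at each passage, with Wt1 at 5.03 at p2 and between 1.93 and 5.76 at the later passages. Some of these markers fell by limma against p2, with log2 differences of -3.10 for Wt1 at p23 and of -2.07 for Gata4 and -1.39 for Igfbp5 at p28. Of the 15 genes these were 1 lower and 0 higher at p23, and 2 lower and 0 higher at p28. Of all clones, 0.918% were lower and 0.42% higher at p23, and 1.48% lower and 1.5% higher at p28. The calls did not all go down. At p14, 1 of the 15 genes was called higher, Krt8 (1.10), and 1 lower, Pkhd1l1 (-1.98). Of all clones, 0.721% were higher and 0.623% lower at p14. Of 6 fibroblast and stromal genes, 2 or 3 were above the reference at each passage, and Pdgfra rose by 1.05 at p18. The part of these markers in the results below was not tested. Of 6 macrophage and leukocyte genes, 0 were above the reference at any passage. Of 4 endothelial genes, 1 was above it at each passage (0.29 to 1.68), and Pecam1 and Cdh5 stayed below it, as did the hemoglobin gene Hba-a1 (-6.01 at p2, between -6.98 and -3.69 later). In a bulk RNA sample, fewer cells of a type and less RNA per cell cannot be told apart. The spread of log2 ratios before scaling differed between arrays, with a median absolute deviation from 0.248 to 0.728, and the scaling that evens it out bears on several results below.

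The fibrillar collagens were far less abundant in MOSE cells than in the whole newborn, and most other members lay nearer to the newborn level. With the clones of a gene averaged, all 7 fibrillar collagen genes lay below the reference at all 9 passages. Their median log2 ratio was -2.33, -3.86, -2.96, -2.43, -1.85, -2.30, -2.00, -3.03 and -2.13 in passage order from p2 to p28. The p5 median counts a Col1a2 clone with 2 arrays set by the background floor, described below, so its depth is uncertain. The 8 other collagens, among them the microfibril collagen type VI, were also below it (7 or 8 of them at each passage). The 12 basement membrane genes lay closer to the newborn level, with a median of 0.09 at p2 and between -0.39 and 0.01 later. Over the 37 genes, 25 to 32 lay below the reference at each passage, with medians between -1.03 and -0.38. The map of passage means shows that the strongly negative clones belong to Col1a1, Col1a2, Col2a1, Col3a1, Col5a1, Col6a2 and Nid1.

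**Figure D1:**
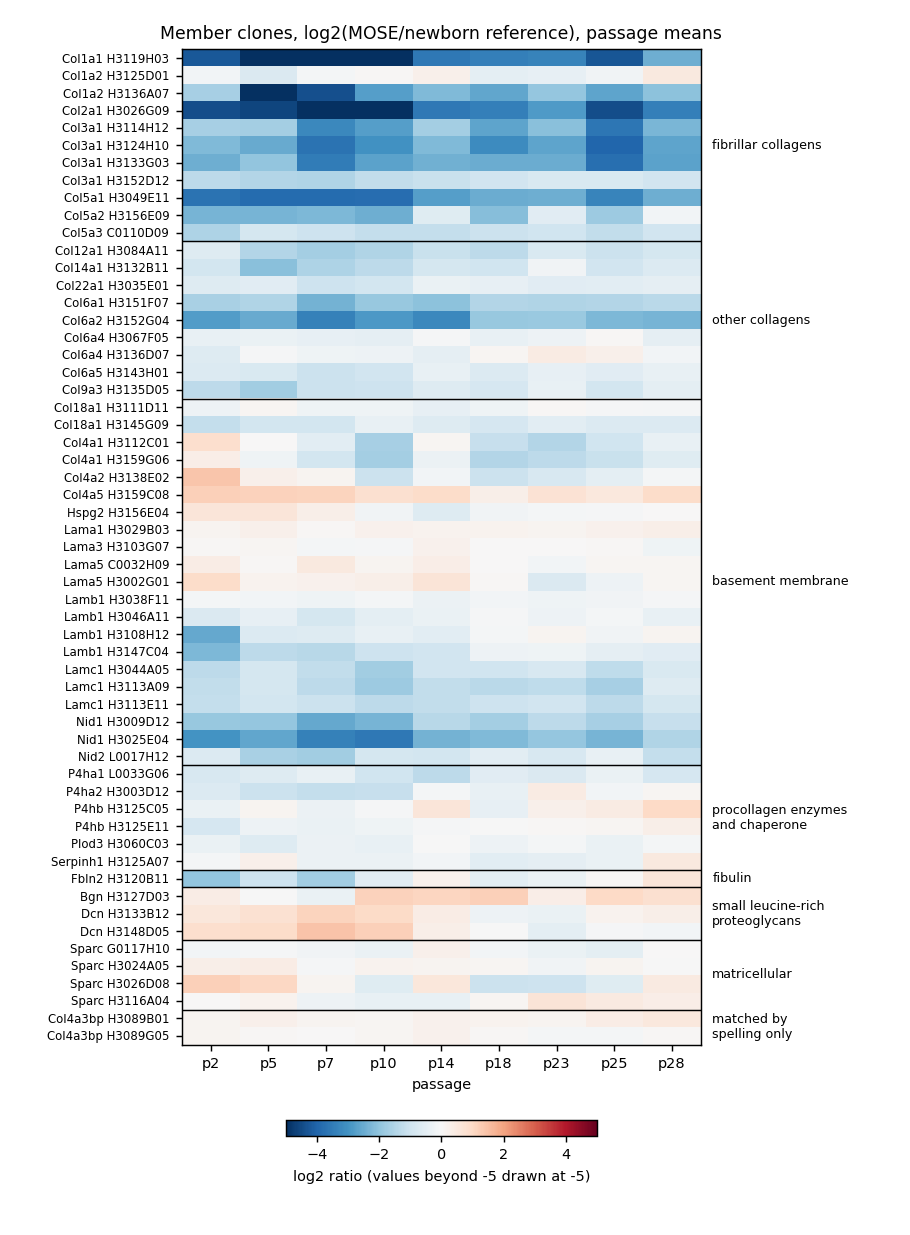
Passage means of log2(MOSE/newborn reference) for the 57 member clones (rows, grouped by role) at 9 passages (columns, evenly spaced). Blue is below the reference and red above it. The fibrillar collagen clones lay below the reference, except Col1a2 clone H3125D01, which reached 0.49 at p28. The Col4a5 clone was among the few that stayed above the reference.

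The passage means of members ranged more widely than those of the array as a whole, and so did their arrays within a passage. The median SD over the arrays of a passage ran from 0.26 for members against 0.21 for all clones at p5 to 0.50 against 0.30 at p23. The part of this spread in the wider range was not tested. The range of the 9 passage means had a median of 1.21 over the 57 member clones, against 0.59 over all clones, and 66.7% of member clones had a rising slope, against 49.0% of all clones. At p28, 25 of the 37 genes stood above their p2 level, with a median difference of 0.25, where the median over all genes was 0.04. With no scaling these were 21 genes and 0.06, and with scaling within passages 20 genes and 0.07, against 0.02 over all genes. At p7 and p10 the members were mostly lower than at p2: 12 and 10 genes were above p2, with medians of -0.31 and -0.23. The direction of the group at the passages between depended on the scaling. At p23 its median difference was 0.15 with arrays scaled over the whole set, -0.50 with arrays scaled within each passage and -0.37 with no scaling. The medians at p14, p18 and p25 also changed sign (0.10, 0.15 and 0.07 scaled over the whole set, -0.10, -0.05 and -0.02 scaled within passages), whereas p7 and p10 stayed below 0 and p28 above 0 under these 3 scalings. At p10 the median was 0.03 when loess was run over the whole array in place of print-tip blocks.

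**Figure D2:**
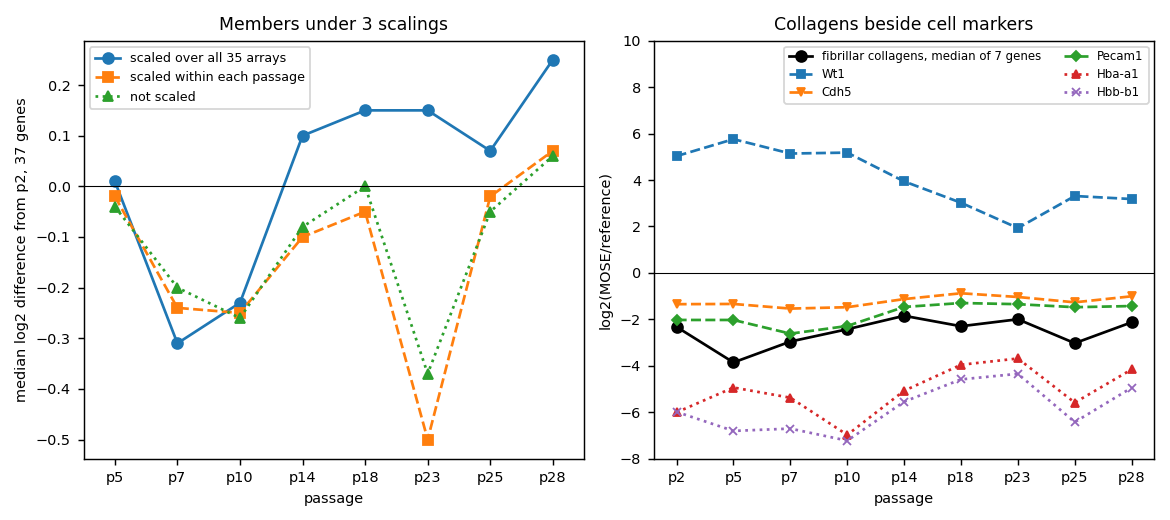
Left, median log2 difference from p2 over 37 member genes at p5 to p28 under 3 scalings of the arrays. Right, log2(MOSE/reference) at 9 passages for the median of 7 fibrillar collagens beside markers of ovarian surface (Wt1), endothelial (Cdh5, Pecam1) and red blood cells (Hba-a1, Hbb-b1). At p23 the 3 scalings ran from 0.15 to -0.50, and Wt1 and the hemoglobins lay nearest to 0 at p23. The collagen median at p5 counts a Col1a2 clone with arrays set by the background floor.

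Each passage was compared with p2 by limma over all clones, at an adjusted p (Benjamini-Hochberg) below 0.01. At p5 and p7, 0 member clones passed, where 0.138% of all clones were higher and 0.177% lower at p5, and 0.0131% were higher and 0.0131% lower at p7; at an unadjusted p below 0.05, 7 member clones were higher and 11 lower at p5 (9.62% and 8.44% of all clones), and 3 were higher and 18 lower at p7 (10.4% and 8.75%). At p10, 0 member clones were higher (0.0787% of all clones) and 2 were lower (0.184% of all clones), both of Col4a1. At p14, 2 were higher (0.721% of all clones), of Col5a2 and Lamb1, and 0 lower (0.623%). At p18, 0 were higher (0.0721%) and 1 clone of Col4a1 was lower (0.151%). At p23, 3 were higher (0.42%), of Fbln2, Lamb1 and P4ha2, and 2 lower (0.918%), of Col4a1 and Sparc. At p25, 2 were higher (0.538%), of Fbln2 and Lamb1, and 2 lower (0.479%), both of Col4a1. At p28, 7 member clones of 6 genes were higher (1.5% of all clones) and 0 lower (1.48%), and the higher ones were Fbln2, Col5a2, Lamb1, Nid1, P4ha2 and both clones of P4hb. All these comparisons share the p2 arrays. These 21 calls were not steady to the loss of 1 array: of 168 refits with 1 array left out, 46 kept the call. These refits left direct and reverse arrays unequal in number and had no dye term. The parts of the dye and of the smaller number of arrays in the lost calls, here and for single genes below, were not tested. By their numbers, 3 of the 4 p18 arrays lay in the same run as the p2 arrays and no array of another passage did, so that in the other comparisons with p2 the run of array numbers and the passage cannot be told apart.

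**Figure D3:**
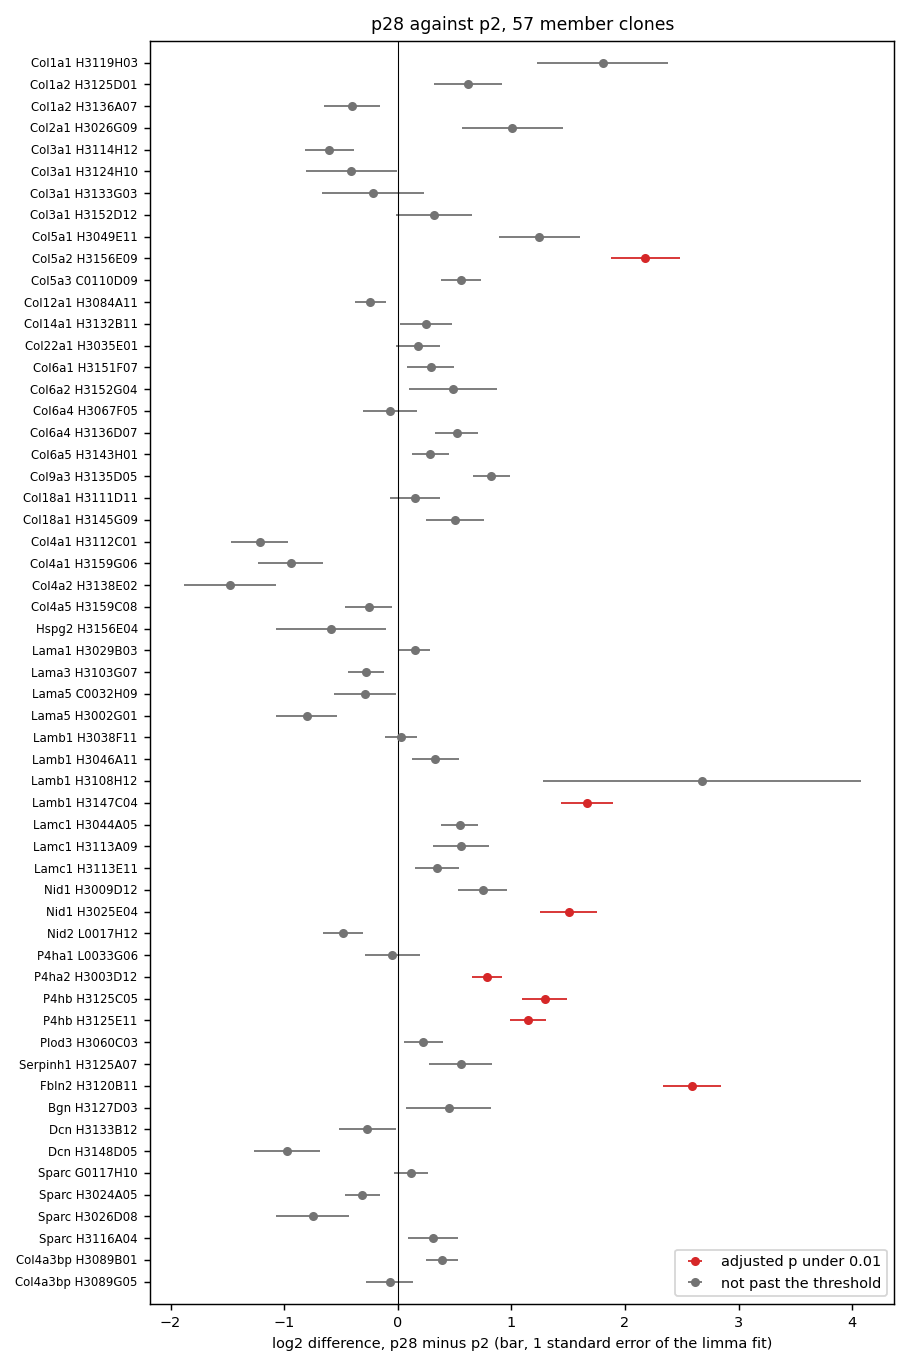
Log2 difference of p28 minus p2 for the 57 member clones, grouped by role from top to bottom, with 1 standard error of the limma fit. Red points passed an adjusted p of 0.01: 7 clones, all to the right of 0.

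Among the fibrillar collagens, Col5a2 was the gene called against p2. Col5a2 codes for a chain of type V collagen, which sits inside type I fibrils and limits their width. Its 4 arrays read -0.56, -0.76, 0.48 and 0.25 at p28 and -2.07, -2.09, -2.28 and -2.88 at p2, in the order direct, direct, reverse, reverse, and the passages did not overlap. The log2 difference was 2.18 ± 0.30 (SE of the fit, adjusted p = 0.00337), a 4.53-fold rise. It rose also at p14 (1.71 ± 0.19, adjusted p = 0.00258), where its arrays read -0.75, -0.74, -0.45 and -0.54. Between these passages its level was not steady: the passage means were -2.33, -2.34, -2.25, -2.43, -0.62, -2.11, -0.58, -1.82 and -0.15 in passage order from p2 to p28. At p23 the reverse arrays (0.17 and 0.49) lay well above the direct ones (-1.52 and -1.46). Without scaling the p28 difference was 1.67, with an adjusted p of 0.0127, and with 1 array left out 6 of 8 refits kept the p28 call and 4 of 8 the p14 call. Its neighbor on chromosome 1, Col3a1, did not follow it closely: over 9 passage means the 4 Col3a1 clones correlated with Col5a2 at 0.10 to 0.58. The reference signal of the bright Col3a1 clones was near saturation on 5 to 15 of the 35 arrays, and the part of this was not tested.

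The other fibrillar collagens gave large differences that were not called, and for most of them the size or the sign changed with the scaling. Col1a1, the alpha 1 chain of the main collagen of skin and bone, averaged -2.45 ± 0.37 at p28 and -4.25 ± 1.36 at p2 (SD over 4 arrays), a difference of 1.80 with an adjusted p of 0.0877. At p7 it reached its lowest mean, -6.23, with arrays at -7.22, -7.97 and -4.86, and at p2 the direct arrays (-3.20 and -2.95) and the reverse ones (-5.55 and -5.28) disagreed. The reference signal of this clone was near saturation on 13 of the 35 arrays. At p23 its mean exceeded that at p2 by 0.92 with arrays scaled over the whole set, and the difference was -1.66 with no scaling. Over the 7 genes of the group, 5 stood above p2 at p23 with a median difference of 0.92 under the first scaling, against 1 of 7 and -0.75 without scaling. At p28 the counts were 6 of 7 with a median of 1.01, against 4 of 7 and 0.02. Markers of blood and vessel cells were also nearer to the reference at p23: Hba-a1 averaged -3.69 at p23 and -6.01 at p2, Hbb-b1 -4.35 at p23 and -5.99 at p2, and Pecam1 -1.35 at p23 and -2.03 at p2. This was not particular to these genes, as the passage means of all clones also lay closer together at p23. With arrays scaled over the whole set, their SD over all clones was 0.77 at p2 and 0.45 at p23. With no scaling it was 0.60 at p2 and 0.68 at p23. The part of these markers and of this spread in the collagen result was not tested.

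Col2a1, the cartilage collagen, stayed between -5.27 and -2.85, and Col5a1, the partner chain of Col5a2, between -3.86 and -2.45. Neither was called against p2. Col5a1 differed by 1.25 ± 0.36 at p28 against p2 (adjusted p = 0.0631), and by 0.02 with no scaling. Col1a2 clone H3136A07 had its lowest mean at p5, -10.46, where the direct arrays read -6.02 and -5.63 and the reverse arrays -12.57 and -17.60. The MOSE signal was not above background on those 2 reverse arrays, so their values are set by the background floor and give no level. The second Col1a2 clone, H3125D01, lay between -0.72 and 0.49 throughout, and the 2 clones of this gene thus differed in level at every passage.

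The other collagens gave no call against p2 by limma. Col9a3, a chain of cartilage type IX collagen, came nearest: its arrays read -0.71, -0.74, -0.38 and -0.08 at p28 and -1.20, -1.28, -1.30 and -1.42 at p2, without overlap, and the difference was 0.82 ± 0.17 (adjusted p = 0.0163). Col6a2, a chain of type VI collagen, averaged -2.32 at p28 and -2.81 at p2, with overlapping arrays, and followed Col6a1, its neighbor on chromosome 10 (r = 0.87 over 9 means). Col14a1, a collagen that sits on the surface of fibrils, had its highest mean at p23 (-0.19, against -0.93 at p2), where 1 direct array read 0.69.

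Of the type IV collagen genes, Col4a1 fell at p10, p18, p23 and p25, and Col4a2 and Col4a5 were not called. Col4a1 and Col4a2 code for the chains that make up the common type IV network, and they lie head to head on chromosome 8. The RefSeq starts (GRCm38.p6) of the genes overlap: the 22 bases from one start to the other lie inside both transcribed regions. They are given whole because both genes begin in them. The stretch is read on the plus strand, chr8:11312805-11312826, and capitals mark the GC box GGGCGG, searched on both strands.
Col4a1 and Col4a2 starts: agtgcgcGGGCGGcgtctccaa
Of 32851 mouse promoters in the RefSeq table, 32.7% hold a GC box within 250 bases before the start. That window is longer and lies elsewhere, so the share does not tell how common the box is in a stretch like this. The letters describe the region only.

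Col4a1 clone H3112C01 read -1.84, -2.10, -1.36 and -1.31 on the p10 arrays, against 0.56, 0.44, 1.06 and 1.33 at p2. Every p10 array was below every p2 array, and the fall was 2.50 on the log2 scale (SE 0.25, adjusted p = 0.00382), to 0.177 times the p2 level. The second clone, H3159G06, fell by 2.03 (adjusted p = 0.00942), with -2.08, -2.12, -1.57 and -1.02 at p10 and 0.25, 0.27, 0.73 and 0.10 at p2. The low level came back after a rise: H3112C01 averaged 0.85, 0.02, -0.54, -1.65, 0.08, -1.17, -1.47, -0.98 and -0.37 in passage order from p2 to p28. The p14 mean of this clone leans on a single reverse array at 2.04, as the other arrays of that passage read -1.30, -0.22 and -0.19. The second clone, H3159G06, also stood higher at p14, with a mean of -0.30 (arrays from -0.61 to -0.15) against -1.70 at p10. Col4a2 averaged -0.15 at p14 and -1.09 at p10. Col4a1 was called lower at p18 (H3159G06, -1.79), p23 (H3112C01, -2.32) and p25 (both clones, -1.45 and -1.82), and not at p28 (adjusted p = 0.0176 and 0.0767). With only the p18 arrays in the run of the p2 arrays, 0 member clones were lower (0.524% of all clones), so Col4a1 was not called there. For p23 against p7, also within 1 run, limma gave -0.53 for H3159G06 and -0.96 for H3112C01 (adjusted p = 0.532 and 0.173). With 1 array left out, 1 of 8 refits kept the p10 call of each clone, with adjusted p from 0.00757 to 0.0395. For the later calls 0 of 8 refits kept that of p18, 1 of 8 that of p23, and 3 and 1 of 8 those of p25.

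Col4a2 had the same course as Col4a1 but was not called. Its clone read -1.28, -1.40, -0.76 and -0.92 at p10 and 0.63, 0.59, 2.18 and 2.17 at p2, so the passages did not overlap, and the difference was -2.48 ± 0.40 (adjusted p = 0.0219). At p2 its reverse arrays stood far above the direct ones. Over the 9 passage means Col4a2 correlated with the Col4a1 clones at 0.93, and the 2 Col4a1 clones with each other at 0.98. These means share all arrays, so the correlations are descriptions. Col4a5, the chain of an alternative type IV network, kept a level between 0.31 and 1.19 at all 9 passages and was not called.

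**Figure D4:**
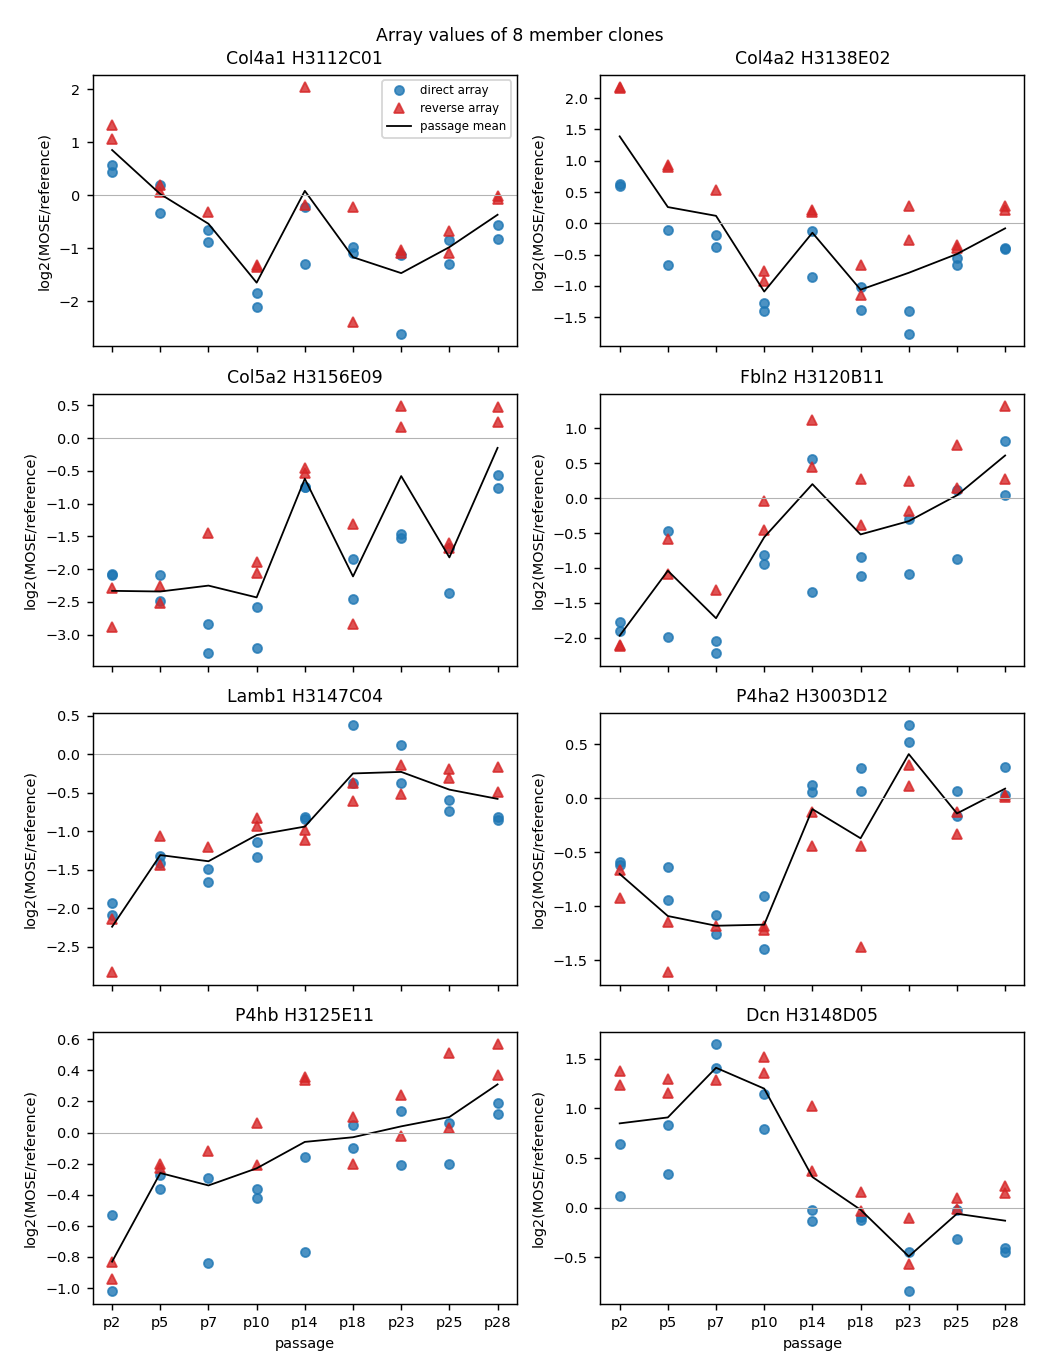
Log2(MOSE/reference) on every array for 8 member clones, with direct arrays as circles, reverse arrays as triangles and the passage mean as a line, at 9 evenly spaced passages. Col4a1 and Col4a2 had their lowest means at p10, Fbln2, Lamb1 and P4hb had their lowest means at p2, and Dcn its highest mean at p7.

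Laminin beta 1 and nidogen 1 rose while other laminin chains gave no call. Lamb1, a chain of the most widespread laminins, was measured by 4 clones. Clone H3147C04 read -0.82, -0.85, -0.16 and -0.49 at p28 and -2.09, -1.93, -2.14 and -2.83 at p2. The passages did not overlap, and the difference was 1.66 ± 0.23 (adjusted p = 0.00333), a 3.17-fold rise. It rose likewise at p14 (1.30), p23 (2.02, the largest of its differences, 4.04-fold) and p25 (1.78), and its slope over the 9 passage means was 0.060 log2 units per passage (adjusted p = 0.034). Within the 3 p18 arrays that share a run of array numbers with p2, Lamb1 rose by 1.85 (adjusted p = 0.00935), or by 1.79 with an adjusted p of 0.0233 without the dye orientation as a term. That comparison called 1 member clone higher (0.118% of all clones) and 0 lower (0.524%). The other 3 clones of the gene were not called: H3038F11 stayed between -0.31 and -0.06, H3046A11 between -0.88 and -0.06, and H3108H12 had an SD of 3.47 over its p2 arrays. With no scaling the p28 difference of H3147C04 was 1.09 and its adjusted p 0.013. With 1 array left out, 6 of 8 refits kept the p28 call, 5 of 8 that of p23, 2 of 8 that of p25 and 0 of 8 that of p14.

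Nid1, the protein that ties laminin to type IV collagen, was called higher at p28 in clone H3025E04. Its arrays read -1.46, -1.63, -1.52 and -1.38 at p28 and -2.34, -2.75, -3.64 and -3.28 at p2, and the difference was 1.50 ± 0.25 (adjusted p = 0.00773). The second clone, H3009D12, differed by 0.75 ± 0.22 (adjusted p = 0.0651), and the 2 clones followed each other over the passages (r = 0.93 over 9 means). Without scaling the Nid1 difference shrank to 0.61 (adjusted p = 0.0358), and 1 of 8 refits with 1 array left out kept the call. Lamc1, the gamma chain that pairs with Lamb1, had 3 clones between -1.81 and -0.66 and no call. Lama5, the alpha chain of adult epithelial laminins, had its lowest mean at p23 in clone H3002G01 (-0.72, against 0.90 at p2) and was not called.

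**Figure D5:**
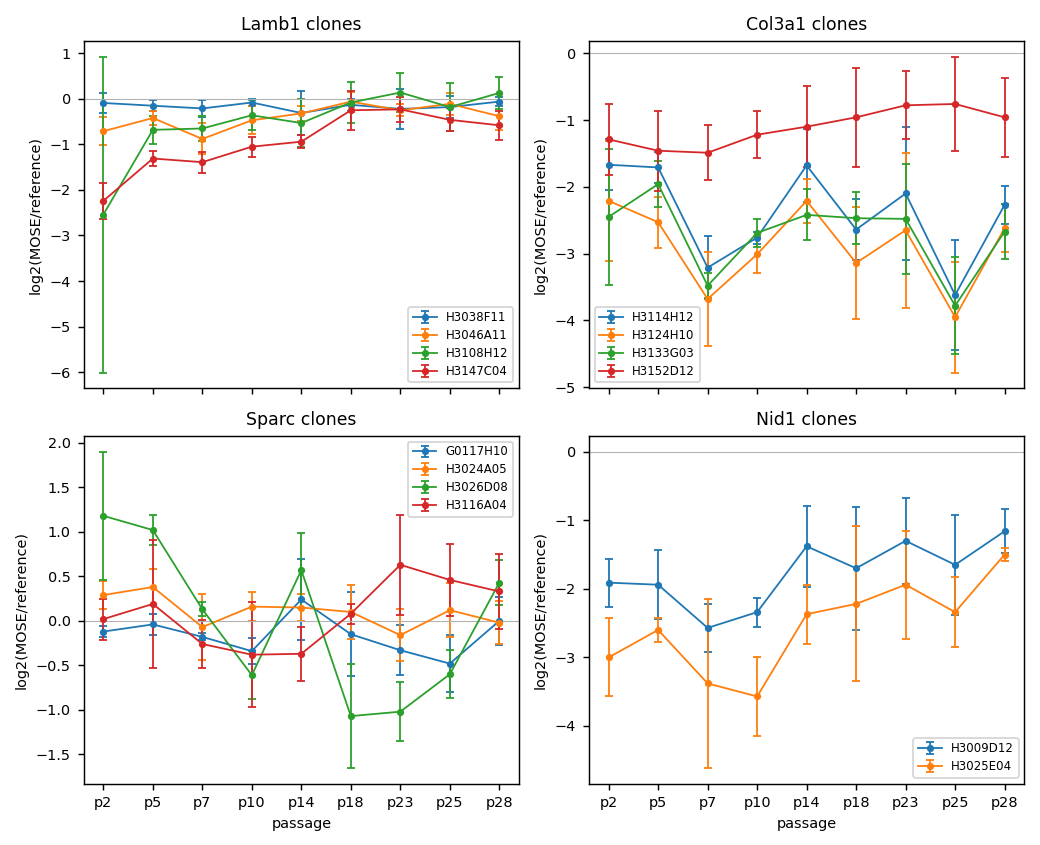
Passage means of log2(MOSE/reference) with the SD over arrays (3 arrays at p7, 4 elsewhere) for each clone of Lamb1, Col3a1, Sparc and Nid1, at 9 evenly spaced passages. The Nid1 clones followed each other (r = 0.93), whereas Sparc clones correlated at -0.41 to 0.63.

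Fbln2, which codes for fibulin 2, a glycoprotein of basement membranes and elastic fibers that binds nidogen, gave the firmest result of all members. Its arrays read 0.05, 0.82, 1.32 and 0.27 at p28 and -1.77, -1.91, -2.12 and -2.10 at p2. No p28 array overlapped the p2 arrays, and the difference was 2.59 ± 0.26 (adjusted p = 0.000744), a 6.01-fold rise. Its passage means were -1.97, -1.04, -1.72, -0.56, 0.20, -0.52, -0.33, 0.04 and 0.61 in passage order from p2 to p28. It rose also at p23 (1.64, adjusted p = 0.0096) and p25 (2.01, adjusted p = 0.00896). At p14 the mean difference was 2.17 without a call (adjusted p = 0.03), and a direct array read -1.34 beside 0.56, 0.45 and 1.12. The p28 call was kept in 8 of 8 refits with 1 array left out and under 13 of 13 other settings, with differences from 2.15 to 3.09. It was the sole call against p2 of which this held. Among the 13 settings, an adjusted p of 0.05 read the same fit at a looser threshold and could lose no call. The p23 and p25 calls were each kept in 1 of 8 refits with 1 array left out. With no scaling their differences were 1.20 (adjusted p = 0.0795) and 1.48 (adjusted p = 0.0353).

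Of 5 genes that prepare procollagen, P4ha2 and P4hb rose at p28 and P4ha1, Plod3 and Serpinh1 were not called. P4ha2 and P4hb are the alpha and beta subunits of prolyl 4-hydroxylase, which makes the hydroxyproline that stabilizes the triple helix, and P4hb is also the protein disulfide isomerase. P4hb clone H3125E11 read 0.19, 0.12, 0.57 and 0.37 at p28 and -1.02, -0.53, -0.94 and -0.83 at p2. The difference was 1.14 ± 0.16 (adjusted p = 0.00337), and clone H3125C05 rose by 1.30 ± 0.20 (adjusted p = 0.00509), so the clones gave a 2.21-fold and a 2.45-fold rise. With 1 array left out, 3 and 1 of 8 refits kept these calls. P4ha2 rose to 0.52, 0.68, 0.31 and 0.11 at p23, against -0.62, -0.59, -0.92 and -0.66 at p2, a difference of 1.10 ± 0.16 (adjusted p = 0.0074). At p28 it rose by 0.79 (adjusted p = 0.00729), and 0 of 8 refits with 1 array left out kept the call at either passage. Its level was lower between p5 and p10 (means of -1.09, -1.18 and -1.17) than at p2 (-0.70), without a call. P4ha1, the other alpha subunit, stayed between -1.29 and -0.32, and Plod3 and Serpinh1, the gene of HSP47, were not called. The background at p28 was 1.5% of all clones higher and 1.48% lower.

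The promoters of P4ha2 and P4hb are shown because both subunits rose. The 250 bases before each RefSeq start (GRCm38.p6) are given 5′ to 3′ on the gene's own strand, and capitals mark the GC box GGGCGG, the CCAAT box CCAAT, the TATA box TATAAA and ACGTG, the core of the hypoxia response element, each searched on both strands. The P4ha2 stretch is chr11:54100674-54100923 on the plus strand and that of P4hb is chr11:120573254-120573503 on the minus strand.
P4ha2: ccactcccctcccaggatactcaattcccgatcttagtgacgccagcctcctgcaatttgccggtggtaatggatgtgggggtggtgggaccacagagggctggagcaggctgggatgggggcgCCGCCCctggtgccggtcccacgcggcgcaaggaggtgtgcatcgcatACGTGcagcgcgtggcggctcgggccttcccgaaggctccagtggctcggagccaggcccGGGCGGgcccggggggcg
P4hb: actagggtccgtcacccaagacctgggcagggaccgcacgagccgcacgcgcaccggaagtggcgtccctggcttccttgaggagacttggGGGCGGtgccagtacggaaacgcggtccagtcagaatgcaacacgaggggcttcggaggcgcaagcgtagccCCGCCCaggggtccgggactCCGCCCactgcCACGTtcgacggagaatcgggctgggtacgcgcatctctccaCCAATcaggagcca
Promoters were in the table for 24 of the 37 member genes, 26 in all. ACGTG was in 16.6% of the 32851 promoters and in 7 of the 26 of members, and those 7 included all 5 procollagen genes (P4ha1, P4ha2, P4hb, Plod3 and Serpinh1), whether their level was called or not. The others were Col1a2 and Col5a1. The GC box was in 20 of the 26 (76.9%, against 32.7% of all), the CCAAT box in 11 (42.3%, against 33.8%) and the TATA box in 1, that of Col3a1 (3.85%, against 12.4%). These matches describe letters, and no factor was measured at them.

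Of the small proteoglycans, Dcn had a falling slope and Bgn had a call between p14 and p7. Dcn codes for decorin, which binds collagen fibrils and growth factors. Clone H3148D05 averaged 0.85, 0.91, 1.41, 1.20, 0.31, -0.02, -0.49, -0.06 and -0.13 in passage order from p2 to p28. Its slope was -0.061 log2 units per passage (adjusted p = 0.0369). Within 1 run of array numbers, Dcn fell at p23 to -0.45, -0.84, -0.57 and -0.10, against 1.65, 1.41 and 1.29 at p7, and the difference was -1.96 ± 0.21 (adjusted p = 0.00581), or -1.91 with an adjusted p of 0.0678 without scaling. The second clone, H3133B12, followed the first (r = 0.94), with a slope of -0.037 that was not called (adjusted p = 0.146). Bgn, the related proteoglycan biglycan, rose at p14 against p7 within the same run: its arrays read 0.48, 0.42, 1.50 and 1.90 at p14 and -0.61, -0.82 and 0.03 at p7. That difference was 1.37 ± 0.17 with the dye orientation as a term (adjusted p = 0.0093), and 1.54 with an adjusted p of 0.0708 without that term. Against p2, Bgn was not called at any passage.

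In these comparisons within a run of array numbers, p14 against p7 called 1 member clone higher (0.557% of all clones), Bgn, and 0 lower (0.557%). The comparison of p23 against p7 called 2 higher (0.118%), P4ha2 (1.62) and Col5a2 (1.65), and 1 lower (0.452%), Dcn. With no scaling the P4ha2 difference was 1.61 (adjusted p = 0.0619) and that of Col5a2 0.96 (adjusted p = 0.586).

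Sparc, a matricellular protein that binds collagen, was measured by 4 clones that disagreed. Clone H3026D08, the brightest, read -0.78, -1.47, -0.78 and -1.06 at p23 and 0.67, 0.47, 1.69 and 1.90 at p2, and fell by 2.21 (SE 0.34, adjusted p = 0.00837), a call that 1 of 8 refits with 1 array left out kept. At p14 and p28 its means were back at 0.57 and 0.43. The other clones lay between -0.48 and 0.63 at every passage and were not called. Of the 23 clones annotated as similar to rat SPARC, 17 had a median reference signal above 10000. With all comparisons pooled, 2 of the 23 were called. The share of all clones called in any comparison is not given here, so this count cannot be judged against the array. The slopes of the 23 ran from -0.026 to 0.044. The bright clones were near saturation in the reference on 57.4% of readings at p2, 73.5% at p18 and 0% at p23 and p28, and the part of this in the slopes was not tested. Which of these clones measure the Sparc transcript was not tested.

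Across the 9 passage means, 4 member clones had a rising slope at an adjusted p below 0.05 (1.43% of all clones) and 1 a falling slope (1.34%). The rising ones were Fbln2 (0.078 log2 units per passage, adjusted p = 0.0366), Lamb1 H3147C04, P4hb H3125E11 (0.032, adjusted p = 0.0287) and the dim Col3a1 clone H3152D12 (0.025, adjusted p = 0.0435), and the falling one was Dcn. Col3a1 codes for type III collagen, and its call does not speak for the gene: the 3 bright clones had slopes down to -0.025, and the arrays of H3152D12 overlapped, with -1.01, -1.79, -0.49 and -0.58 at p28 and -2.03, -0.99, -0.83 and -1.29 at p2. The reference signal of the bright clones was near saturation on 11, 15 and 5 of the 35 arrays, and the part of this in their slopes was not tested. With no scaling, 0 of the 57 clones had a called slope. In the comparison of p23 to p28 with p2 to p18, the passages on either side of the point the study takes as the mark of malignancy, limma called 0 member clones higher (0% of all clones) and 0 lower (0%), while 13 were higher and 2 lower at an unadjusted p below 0.05 (8.08% and 6.96% of all clones).

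Genes around the members were read from lists of related functions. Of 18 other matrix glycoproteins and proteoglycans, 2 were called higher and 0 lower at p28, and 4 had a rising and 0 a falling slope (background 1.5% and 1.48% of clones at p28, 1.43% and 1.34% for slopes). Earlier calls in this list included falls of Spp1, osteopontin, at p5, p10 and p14 (-2.56, -2.56 and -1.44) and of Tnc, tenascin C, at p5 and p25 (-2.28 and -1.08). Fn1, fibronectin, rose by 4.25 ± 0.31 at p28 (adjusted p = 0.000293) and by 4.31 at p14. Tinagl1, which binds basement membrane, rose by 1.54 at p28. Of 12 matrix proteases and inhibitors, 1 was called higher at p28 and 0 lower: Mmp2, the gelatinase that cuts denatured collagen and type IV collagen, with 1.82 ± 0.16 (adjusted p = 0.000416). It was also higher at p10, p14, p18, p23 and p25. Plat, tissue plasminogen activator, was lower at p18, p23 and p25 (-2.05, -2.00 and -1.60). Serpinf1 was higher at p23 and p25 (2.07 and 2.09) and had the only called slope of this list (0.098 log2 units per passage, adjusted p = 0.0077 by limma). Of 16 matrix receptors, 1 was called higher and 3 lower at p28: Itgb1 rose by 1.14, and Sdc4 (-2.54), Itga3 (-1.23) and Dag1 (-1.10), the dystroglycan that holds laminin, fell. Of 18 genes of procollagen folding and export outside the members, 0 were higher and 1 lower at p28. This was Hspa5, the chaperone BiP, in clone H3003F12 with -1.32 (adjusted p = 0.00975). The Hspa5 clones H3032A08 and H3144C11 were not called at p28. By slope, 0 of the 18 genes rose and 2 fell, Canx (-0.163, adjusted p = 0.0251 by limma) and Pdia3 (-0.048, adjusted p = 0.0464). Of 11 regulators of matrix genes, limma called 0 at p28 and 0 by slope, while at an unadjusted p below 0.05 there were 1 higher and 3 lower at p28 and 2 rising and 2 falling slopes. The median difference at p28 was 0.88 over the glycoproteins, 0.04 over the proteases, 0.22 over the receptors, 0.35 over the folding genes and 0.14 over the regulators, against 0.04 over all genes.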

How the data were processed

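The files hold GenePix scanner output for 35 two-color arrays. Per the file headers, each spot has a mean foreground and a median local background intensity at both wavelengths, extracted by the authors with GenePix Pro. The authors also deposited a table of log2 ratios after background correction, print-tip loess and scale adjustment across slides. It was used as an alternative (15023 rows, of which 14758 were matched to clones by their values across arrays, with a median Spearman correlation of 0.975), and its centring was not given in the sources used here. From the intensities, background was subtracted with a floor of 0.5, ratios were normalized by loess within 32 print-tip blocks, scaled between arrays and turned so that a positive log2 ratio means more MOSE signal. Tests used limma 3.58.1 in R 4.3.3 (lmFit, eBayes, two-sided, Benjamini-Hochberg over all clones), with dye orientation as a term where p7 or 3 p18 arrays entered. Refits with 1 array left out had a dye term only at p7. The threshold was an adjusted p of 0.01 between arrays and 0.05 over passage means. Slopes used 1 value per passage. Clones of a gene were tested separately and averaged for gene counts. Array replicates share 1 RNA, and their number limits the precision. The scripts were tested on simulated data.

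Named genes were the members called in any comparison, further members by absolute slope up to 20 genes, and the gene with the widest range in each role. Members, lists and rules were chosen with earlier results of these data known. The presence of the motifs in procollagen promoters was noticed after the values were seen. Alternatives changed the background correction, loess, scaling, filter on dim clones, dye term, replicate label block, run of array numbers, threshold and arrays used. Leaving out spots marked as not found and using p7 as baseline were chosen after seeing the data. Promoters came from RefSeq (GRCm38.p6), read with Python 3.11.15, and symbols were those of the array annotation.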

Additional observations from a re-analysis of the deposited data

Results flagged for a closer look

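In 11 of 184 groups of 4 arrays, over 23 member clones, 1 array lay apart from the other 3 by more than Dixon's critical value for the gap as a share of the group's range. Chance gives about 1 such group in 20. On the second direct array of p23, Col1a1 read -5.37 (others -2.96 to -2.49), Col4a1 clone H3112C01 -2.62 (others -1.13 to -1.03), Col5a1 -4.02 (others -1.99 to -1.87) and Col9a3 -1.17 (others -0.15 to -0.12). That array had a median absolute deviation before scaling of 0.367, where the other p23 arrays had 0.677 to 0.728, and the part of this in the 4 values was not tested. On the first direct array of p23, Col4a3bp clone H3089B01 read -0.64 (others 0.30 to 0.47). At p10, Col5a1 read -4.48 on the first direct array (others -3.63 to -3.45). The Col3a1 clone H3152D12 read -2.07 on the first reverse array of p18 (others -0.68 to -0.54). The Col5a2 clone read -2.36 on the second direct array of p25 (others -1.67 to -1.60). At p2, Col6a2 read -3.82 on the second reverse array (others -2.48 to -2.44). Lama5 clone H3002G01 read 1.07 on the second reverse array of p14 (others 0.50 to 0.55), and P4ha2 0.29 on the first direct array of p28 (others 0.01 to 0.03).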

How the results depend on the processing

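Counts are member clones called. Shares of all clones stand beside them only for p7 as baseline. The other counts thus do not tell a change of the members from a change of the whole array. At p5 the count was 0, and 1 with the deposited table, the run of array numbers as a random block or the dye term, 2 with all 35 arrays in 1 fit and 4 at an adjusted p of 0.05, with 0 to 0 when 1 array was left out. At p7 it was 0, and 7 without scaling, 1 with the deposited table, the filter on dim clones or not-found spots left out and 3 at 0.05, with 0 to 4 when 1 array was left out (4 without the p7 reverse array). At p10 it was 2, and 4 with normexp, the dim filter, the run block or not-found spots left out, 0 with loess over the whole array, 7 without scaling or with the deposited table, 5 in 1 fit, 8 at 0.05 and 3 with the dye term, with 0 to 1 when 1 array was left out. At p14 it was 2, and 1 with whole-array loess, scaling within passages or the deposited table, 4 in 1 fit or with the dye term and 5 with the run block or at 0.05, with 0 to 1 when 1 array was left out. At p18 it was 1, and 2 with normexp, no background subtraction, no scaling, the dim filter or not-found spots left out, 0 with whole-array loess, within-passage scaling or the deposited table, 5 in 1 fit, 10 with the run block, 6 at 0.05 and 4 with the dye term, with 0 to 0 when 1 array was left out. At p23 it was 5, and 0 with within-passage scaling or the deposited table, 12 in 1 fit, 10 with the run block or at 0.05 and 7 with the dye term, with 0 to 4 when 1 array was left out. At p25 it was 4, and 7 without scaling or with the dye term and 9 in 1 fit, with the run block or at 0.05, with 0 to 2 when 1 array was left out. At p28 it was 7, and 4 with within-passage scaling, 9 at 0.05 and 11 with the dye term, with 1 to 5 when 1 array was left out. With the array label as a replicate block the counts were 1 at p10, 0 at p14, p18, p23 and p25 and 2 at p28; arrays of the same label correlated at -0.07 to 0.24 and the labels mark no shared sample, so they share only a number. For slopes the count was 5, and 10 with normexp, 8 with the dim filter, 0 without scaling, with within-passage scaling or on direct arrays only, 2 with the deposited table or reverse arrays only and 3 on passage rank or gene means. Without 1 passage it was 0 (p2, p7, p10 or p23 out), 1 (p5 out), 2 (p18, p25 or p28 out) or 6 (p14 out). Without scaling the counts for p14 against p7, p23 against p7 and p18 against p2 in 1 run were 3, 0 and 3 (1, 3 and 1 with it), and without the dye term 0, 2 and 0. With p7 as baseline, 10 member clones were higher and 1 lower at p28 (2.52% and 2.59% of all clones). Of 549 refits of called values, 294 kept the call, 255 lost it and 0 changed sign. The 294 include the looser threshold of 0.05, which could lose no call against p2. Of 632 refits of slopes that were not called, 16 became calls and 19 changed sign.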
